A study of Mus musculus with 96 samples.

Results

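The aryl hydrocarbon receptor (AhR) pathway was described in mouse liver through 6 genes: the receptor Ahr, its dimer partner Arnt, and the target genes Cyp1a2, Cyp1a1, Cyp1b1 and Tiparp. They were chosen by name, and all 6 were among the 18193 genes measured. Where several probe sets were annotated with one gene, the brightest on average stood for it.

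AhR is a ligand-activated transcription factor that waits in the cytoplasm with the chaperone Hsp90. After binding a ligand such as a dioxin or a polycyclic hydrocarbon it enters the nucleus, pairs with Arnt and binds xenobiotic response elements near its targets, of which Cyp1a1 is the classic one. Cyp1a2 is made in hepatocytes, mostly around the central vein, also without added ligand, Cyp1b1 is made mainly outside hepatocytes, and Tiparp is an ADP-ribosyltransferase that represses AhR. Phenobarbital is known mainly as an activator of the constitutive androstane receptor (CAR, gene Nr1i3), whose classic target in mouse liver is Cyp2b10.

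The samples were livers of CD-1 mice, an outbred stock whose animals differ in genotype, given PB in the diet. The labels do not expand PB, which commonly stands for phenobarbital in this setting. Females and males ate diets without PB (dose 0) or with PB at 0.15, 1.5, then 15, 75 and 150 mg/kg-day, and livers were taken after 2 and 7 days, which made 24 groups of 4 arrays, 96 arrays in all, and every dosed group was set against the dose 0 group of its own sex and day (a stratum, of which there were 4). Titles of the samples give these numbers as ppm, a conflict the data do not settle, so the unit is that of the design text. The animals' age is unknown here. It is not stated that each array came from a separate mouse, so p-values measure the spread between these samples, which may be technical.

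All values are on the log2 scale, so differences are log ratios of signal. The array medians lay between 5.35 and 5.44, and arrays of one group correlated at 0.987 to 0.995 over all probe sets. The mean of 9 hepatocyte markers lay between 13.94 and 14.10 in every array, as the tissue label says. In bulk liver, fewer cells of a type and less RNA per cell cannot be told apart. No detection calls were used here, so the Cyp1a1 and Cyp1b1 probe sets, whose means of 5.42 lie near the middle of all probe sets, were not shown to be above background.

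A pair of arrays went against their labels. In males on day 2, replicate 1 at 15 mg/kg-day read 13.66 for Cyp2b10, while the other 3 arrays of its group read 11.07 to 11.29. Replicate 1 at 75 mg/kg-day read 10.98, while its group's other 3 arrays read 13.19 to 13.36. The array labelled 75 mg/kg-day thus lay near the other 3 arrays at 15 mg/kg-day. The array labelled 15 mg/kg-day lay above the other 3 at 75 mg/kg-day and within the 13.44 to 13.70 read at 150 mg/kg-day. Among the 6 genes, Cyp1a2 and Ahr read 13.35 and 9.76 in the array labelled 15 mg/kg-day, and 12.90 and 8.99 in the array labelled 75 mg/kg-day. The labels were kept, and changes of the 6 genes named below that rest on these arrays are given with and without the pair. Group means, their order and their correlations include the pair.

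The promoters of Cyp1a2 and Cyp1a1 are shown because only the first of these neighbouring targets was called below. Their changes were not tested against each other, and the part of the promoter sequence in them was not tested. RefSeq places the gene starts 14.0 kb apart on chromosome 9 of build GRCm38.p6, on opposite strands. Cyp1a2 is shown at chr9:57683606-57683905 on the minus strand and Cyp1a1 at chr9:57697363-57697662 on the plus strand. Each run holds the 250 bases before the gene start and 50 after it, read along the gene. Capitals mark GCGTG, the core of the xenobiotic response element, and TATAAA, a core promoter motif, on either strand.
Cyp1a2: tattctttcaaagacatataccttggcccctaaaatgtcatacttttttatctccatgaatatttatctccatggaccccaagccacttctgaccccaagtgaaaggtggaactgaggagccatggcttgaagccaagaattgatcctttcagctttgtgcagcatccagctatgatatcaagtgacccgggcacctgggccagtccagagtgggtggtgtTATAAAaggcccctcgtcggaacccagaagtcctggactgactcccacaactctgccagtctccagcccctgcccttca
Cyp1a1: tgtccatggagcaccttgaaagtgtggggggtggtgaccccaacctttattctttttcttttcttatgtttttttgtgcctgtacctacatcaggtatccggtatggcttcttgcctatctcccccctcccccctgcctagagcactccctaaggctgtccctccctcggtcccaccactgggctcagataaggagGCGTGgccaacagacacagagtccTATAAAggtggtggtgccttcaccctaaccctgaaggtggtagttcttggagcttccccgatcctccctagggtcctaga
The Cyp1a1 window held 1 GCGTG, whose first base lies 54 bases before the start, and the Cyp1a2 window held 0. Both windows held 1 TATAAA, which begins 30 bases before the start in Cyp1a1 and 29 before it in Cyp1a2. Among the other members found in the RefSeq table, Arnt, Cyp1b1 and Tiparp held 1 GCGTG each and 0 TATAAA. Of all 32851 windows of the same length in the table, 32.4% held GCGTG and 13.6% held TATAAA on either strand, with no overlap between the letters of these motifs in the printed runs. AGGTCA, a motif of many nuclear receptors, was in 0 of the 5 members' windows and in 16.3% of all windows. A match is a string of letters, not a measured site, and no match says only that these letters are not in this window.

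Cyp1a2, the hepatic P450 that oxidises caffeine and aromatic amines, rose at 150 mg/kg-day in both sexes and on both days, by 1.42-fold to 1.88-fold. The receptor gene Ahr rose by 1.47-fold to 1.80-fold in the same 4 comparisons. No other member passed the threshold of 0.05 on the adjusted p in any of the 20 comparisons of a dose with dose 0; of these 80 tests, 2 had an unadjusted p under 0.05. Tests used limma on all 96 arrays and p-values adjusted by Benjamini-Hochberg across all 18193 genes. At 150 mg/kg-day the 2 members called in each stratum stood beside 5.46% of all genes in females on day 2, 2.45% in females on day 7, 4.9% in males on day 2 and 3.04% in males on day 7. The share of all genes whose groups do not overlap is not given here. A lack of overlap, where stated below, thus only describes the arrays named.

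**Figure D1:**
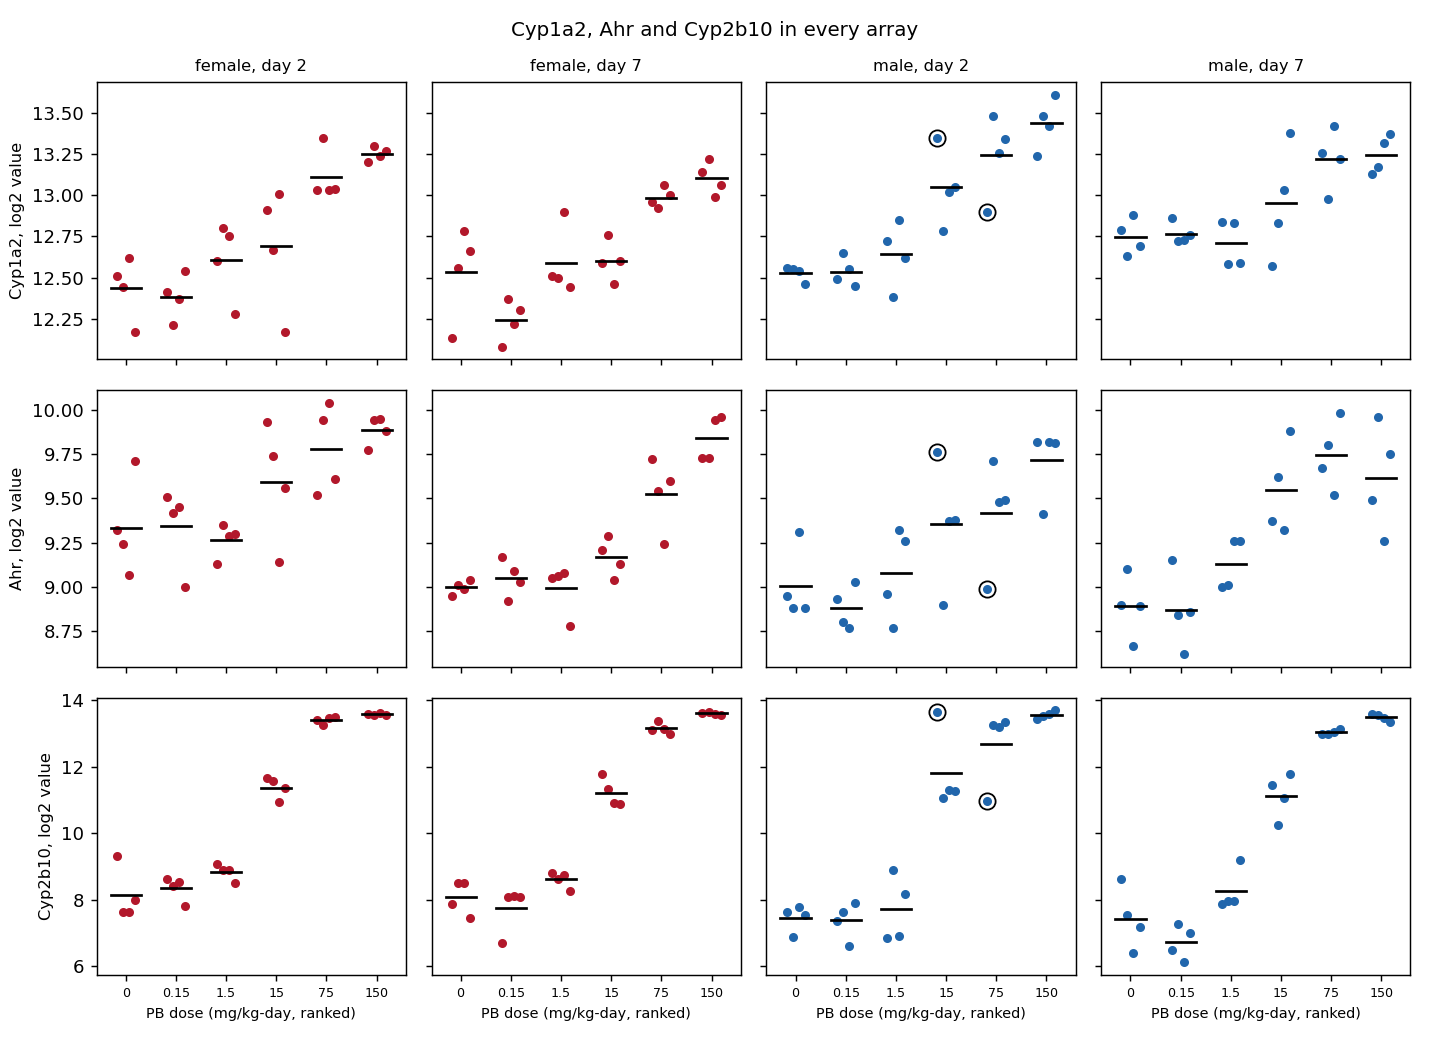
Log2 value of Cyp1a2, Ahr and the CAR target Cyp2b10 in each of the 96 arrays (points; bars are group means of 4) against PB dose in mg/kg-day, with doses evenly spaced by rank and a column for each sex and day. Circles mark the pair of arrays in males on day 2 that went against their labels; at 150 mg/kg-day every Cyp1a2 and Ahr value lies above every value at dose 0 of the same sex and day.

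Cyp1a2 in females on day 2 read 13.20, 13.30, 13.24 and 13.27 at 150 mg/kg-day, against 12.51, 12.44, 12.62 and 12.17 at dose 0. On day 7 females read 13.14, 13.22, 12.99 and 13.06 at 150 mg/kg-day, against 12.13, 12.56, 12.78 and 12.66 at dose 0. The dosed arrays were all above the undosed ones on both days, with single low control arrays of 12.17 on day 2 and 12.13 on day 7. The rise was 0.82 on the log2 scale, 1.76-fold, on day 2 (SE 0.13, limma adjusted p = 3.34e-06) and 0.57, 1.49-fold, on day 7 (SE 0.13, limma adjusted p = 0.00416). Without replicate 1 of the day 7 controls, the day 7 rise was 0.44 with a limma adjusted p of 0.0878.

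In males on day 2, Cyp1a2 read 13.24, 13.48, 13.42 and 13.61 at 150 mg/kg-day, against 12.56, 12.55, 12.54 and 12.46 at dose 0. On day 7 males read 13.13, 13.17, 13.32 and 13.37 at 150 mg/kg-day, against 12.79, 12.63, 12.88 and 12.69 at dose 0. The groups did not overlap on either day, and the day 7 controls lay above the day 2 controls. The rise was 0.91, 1.88-fold, on day 2 (SE 0.13, limma adjusted p = 5.18e-07) and 0.50, 1.42-fold, on day 7 (SE 0.13, limma adjusted p = 0.0143). The day 7 call was lost without control replicate 2 (0.46, limma adjusted p = 0.0523) or without replicate 4 at 150 mg/kg-day (0.46, limma adjusted p = 0.0517).

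At 75 mg/kg-day Cyp1a2 did not overlap dose 0 in any of the 4 strata, and limma called it in 2 of them. Females on day 2 read 13.03, 13.35, 13.03 and 13.04 at 75 mg/kg-day, 0.68 above dose 0 (limma adjusted p = 0.00186), where 0.451% of all genes were called. Males on day 2 read 12.90, 13.48, 13.26 and 13.34, 0.72 above dose 0 (limma adjusted p = 0.000567), where 0.44% of all genes were called. The lowest of these male values is one of the doubted arrays, and without the pair the difference was 0.83 (limma adjusted p = 3.06e-05). On day 7 the differences at 75 mg/kg-day, 0.45 in females and 0.47 in males, did not pass (limma adjusted p = 0.0713 and 0.116). In females on day 7, where 0 members were called and 0.764% of all genes, leaving out control replicate 3 brought the difference to 0.53 (limma adjusted p = 0.04).

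Lower doses gave smaller differences of Cyp1a2. At 15 mg/kg-day all 4 strata lay above dose 0, by 0.07 to 0.52, and none was called, beside 0.022% of all genes in females on either day, 0.0385% in males on day 2 and 0.011% on day 7. Without the doubted pair the highest of these, 0.52 in day 2 males, was 0.42 (limma adjusted p = 0.678). At 1.5 mg/kg-day the differences ran from -0.04 to 0.17, and at 0.15 mg/kg-day from -0.29 to 0.02. None of the 8 comparisons at these 2 doses was called by limma for Cyp1a2 (1 had an unadjusted p under 0.05), in a setting where the highest share of all genes called was 0.0055%, in day 7 males given 0.15 mg/kg-day. A linear contrast over the ranks of the 6 doses was called in every stratum, with a slope per dose step of 0.18 in females on day 2, 0.15 in females on day 7, 0.20 in males on day 2 and 0.12 in males on day 7 (limma adjusted p from 4.51e-11 to 0.00014). The slope in males on day 2 was 0.21 without the doubted pair. The trend called 2 members in each stratum, Cyp1a2 and Ahr, beside 8.73%, 4.35%, 6.04% and 4.46% of all genes in the same order.

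No member was called between 150 and 75 mg/kg-day, where 2 of 24 limma tests had an unadjusted p under 0.05 and 1.33%, 0.055%, 0.148% and 0.126% of all genes were called in females on days 2 and 7 and males on days 2 and 7. For Cyp1a2 the difference of 150 minus 75 mg/kg-day ran from 0.03 in males on day 7 to 0.19 in males on day 2 (limma adjusted p from 0.631 to 0.999), and its 95% intervals reached at most 0.45. The difference in day 2 males was 0.08 without the doubted pair. Averaged over sexes and days, Cyp1a2 differed from dose 0 by 0.26 at 15 mg/kg-day (limma adjusted p = 0.073), 0.58 at 75 (limma adjusted p = 1.7e-10) and 0.70 at 150 (SE 0.07, 1.63-fold, limma adjusted p = 1.81e-14). Leaving out the doubted pair, the first of these values was 0.24 (limma adjusted p = 0.163) and the second 0.61 (limma adjusted p = 1.04e-11). Over the same 4 strata Cyp2b10 rose by 3.61, 5.29 and 5.78 at these doses, 54.9-fold at the highest. The Cyp2b10 values at 15 and 75 mg/kg-day include the doubted pair. Without the pair, the Cyp2b10 mean of day 2 males was 11.21 in place of 11.82 at 15 mg/kg-day. At 75 mg/kg-day it was 13.27 in place of 12.70. Cyp2b10 shares the control arrays with Cyp1a2, so these values stand side by side as a description. The Cyp1a2 probe set was brighter on average than 99.2% of probe sets. Whether so bright a signal still rises in proportion to the RNA was not tested.

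Ahr in females on day 2 read 9.77, 9.94, 9.95 and 9.88 at 150 mg/kg-day, against 9.32, 9.24, 9.07 and 9.71 at dose 0. Females on day 7 read 9.73, 9.73, 9.94 and 9.96 at 150 mg/kg-day, against 8.95, 9.01, 8.99 and 9.04 at dose 0. The groups did not overlap on either day, with the smallest gap on day 2, where control replicate 4, at 9.71, lay just below the lowest dosed array. The rise was 0.55, 1.47-fold, on day 2 (SE 0.15, limma adjusted p = 0.0118) and 0.85, 1.80-fold, on day 7 (SE 0.15, limma adjusted p = 7.26e-05). Without control replicate 3, the lowest of the day 2 controls, the day 2 rise was 0.46 with a limma adjusted p of 0.0863.

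Male livers on day 2 read 9.82, 9.41, 9.82 and 9.81 for Ahr at 150 mg/kg-day, against 8.95, 8.88, 9.31 and 8.88 at dose 0. Male livers on day 7 read 9.49, 9.96, 9.26 and 9.75 at 150 mg/kg-day, against 8.90, 9.10, 8.67 and 8.89 at dose 0. Every dosed value was above every undosed one, although the dosed males spread more widely than the dosed females. The rise was 0.71, 1.63-fold, on day 2 (SE 0.15, limma adjusted p = 0.000837) and 0.73, 1.66-fold, on day 7 (SE 0.15, limma adjusted p = 0.000747).

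At 75 mg/kg-day Ahr was called in males on day 7 alone. Its arrays read 9.67, 9.80, 9.52 and 9.98 at 75 mg/kg-day, 0.86 above dose 0 (1.81-fold, limma adjusted p = 0.000219), where 0.247% of all genes were called. In the other 3 strata the differences were 0.44 in females on day 2, 0.53 in females on day 7 and 0.41 in males on day 2 (limma adjusted p = 0.204, 0.064 and 0.253). Without the doubted pair the last of these was 0.55 (limma adjusted p = 0.0569). That the call stood in 1 stratum does not make the strata differ: the difference between the days in males at 75 mg/kg-day was 0.45 (95% interval 0.026 to 0.865, limma adjusted p = 0.999), and 0.30 with the doubted pair left out (limma adjusted p = 0.9).

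Averaged over sexes and days, Ahr rose by 0.36 at 15 mg/kg-day (1.28-fold, limma adjusted p = 0.0145), 0.56 at 75 (1.47-fold, limma adjusted p = 5.05e-08) and 0.71 at 150 (1.63-fold, SE 0.07, limma adjusted p = 2.83e-12). At 15 mg/kg-day it was the only member called in this average, beside 0.11% of all genes. Without the doubted pair that rise was 0.32 (limma adjusted p = 0.0317), and without the doubted array at 15 mg/kg-day alone the limma adjusted p was 0.0505. At 75 mg/kg-day Ahr and Cyp1a2 were called, beside 8.92% of all genes, and without the doubted pair the Ahr rise was 0.59 (limma adjusted p = 1.6e-09). The trend over doses was 0.13 per step in females on day 2, 0.17 in females on day 7, 0.15 in males on day 2 and 0.19 in males on day 7 (limma adjusted p from 3.21e-08 to 0.000195). The slope in day 2 males was 0.16 with the doubted pair left out.

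A second Ahr probe set gave smaller values. Its mean over all arrays was 5.49, close to the middle of all probe sets, where that of the first was 9.33. Its differences at 150 mg/kg-day were 0.07 in females on day 2, 0.27 in females on day 7, 0.29 in males on day 2 and 0.15 in males on day 7, none of which was called. Averaged over sexes and days its difference at 150 mg/kg-day was 0.19 (limma adjusted p = 0.0068). The averages at 15 and 75 mg/kg-day, 0.02 and 0.11, were not called for this probe set (limma adjusted p = 0.942 and 0.234), nor was the difference of 0.11 in day 7 males given 75 mg/kg-day (limma adjusted p = 0.881). Both probe sets lay higher at 150 mg/kg-day in all 4 strata.

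**Figure D2:**
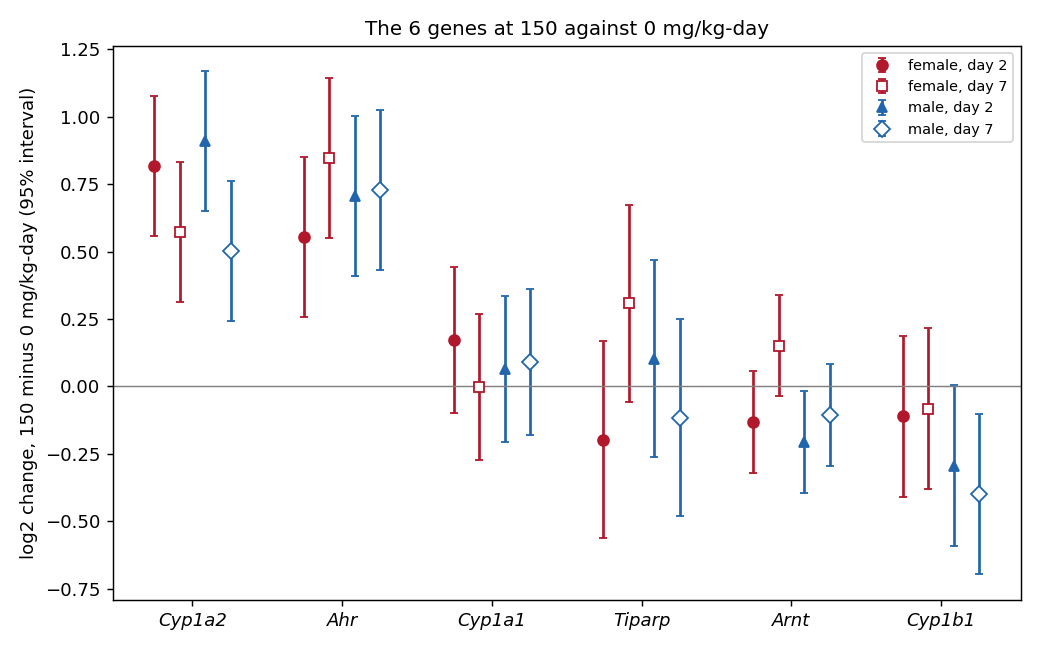
Log2 change at 150 minus 0 mg/kg-day of the 6 genes, with limma's 95% interval, for females and males on day 2 (filled) and day 7 (open), 4 arrays in each group. The 8 intervals of Cyp1a2 and Ahr lie above 0, and the Cyp1a1 intervals all include 0.

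Cyp1a1, the target most often used to read AhR activity, was not called at any dose. In females on day 2 it read 5.64, 5.60, 5.71 and 5.57 at 150 mg/kg-day, against 5.81, 5.27, 5.25 and 5.49 at dose 0, and in males on day 2 it read 5.23, 5.35, 5.82 and 5.56 at 150 mg/kg-day, against 5.30, 5.33, 5.60 and 5.47 at dose 0. The groups overlapped in all 4 strata. Averaged over sexes and days its difference at 150 mg/kg-day was 0.08, with a 95% interval from -0.05 to 0.22 (limma adjusted p = 0.473). The upper bound is 1.16-fold, for a probe set whose signal was not shown to be above background. Over all 96 arrays Cyp1a1 ran from 4.86 to 5.84 with a median of 5.42.

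Tiparp was not called at any dose either. On day 7 females read 7.31, 7.67, 8.35 and 7.27 at 150 mg/kg-day, against 7.72, 7.18, 7.33 and 7.14 at dose 0, and males read 7.36, 7.34, 7.05 and 7.12 at 150 mg/kg-day, against 7.14, 8.02, 6.95 and 7.23 at dose 0. Single arrays, 8.35 in dosed females and 8.02 in undosed males, stretched these groups, and they overlapped. The differences at 150 mg/kg-day ran from -0.20 in females on day 2 to 0.31 in females on day 7. The average over sexes and days was 0.02, with a 95% interval from -0.16 to 0.21 (limma adjusted p = 0.902), and its 2 other probe sets gave -0.07 and -0.09 (limma adjusted p = 0.852 and 0.735).

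Arnt, which pairs with AhR and with the hypoxia factor Hif1a, ran from 7.33 to 8.20 over all arrays and was not called at any dose. Males on day 2 read 7.71, 7.70, 7.63 and 7.45 at 150 mg/kg-day, against 7.87, 7.92, 7.77 and 7.75 at dose 0. These groups did not overlap, and the difference of -0.21 did not pass (limma adjusted p = 0.246). In females on day 7 the difference was 0.15 in the other direction (limma adjusted p = 0.513). The average over sexes and days was -0.07, with a 95% interval from -0.17 to 0.02 (limma adjusted p = 0.323). Its 4 other probe sets gave averages from -0.03 to 0.14, none of them called, so the sign was not the same in all. The highest, 0.14 (limma adjusted p = 0.134), came from the one nearly as bright, with a mean of 7.68 over all arrays where that of the first was 7.80.

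Cyp1b1, a P450 of steroid and polycyclic hydrocarbon metabolism, was the one member that fell, and only in the average over sexes and days at 150 mg/kg-day. Males on day 2 read 5.18, 5.21, 5.18 and 4.85 at 150 mg/kg-day, against 5.26, 5.36, 5.48 and 5.50 at dose 0, and males on day 7 read 5.30, 5.17, 5.28 and 5.41 at 150 mg/kg-day, against 5.14, 5.96, 5.71 and 5.96 at dose 0. Those groups did not overlap on day 2 and overlapped through 1 control array on day 7. Its differences were -0.11 and -0.08 in females and -0.29 and -0.40 in males on days 2 and 7, none of them called.

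The average for Cyp1b1 was -0.22, or 1.17-fold lower (SE 0.07, limma adjusted p = 0.0277), in a comparison in which 17.7% of all genes were called and 9.42% of all genes were called lower. The call was lost without replicate 4 of males on day 2 at 150 mg/kg-day, or without control replicate 2 or 4 of males on day 7 (limma adjusted p = 0.0574, 0.0577 and 0.0585). Its 2 other probe sets differed by -0.10 and -0.03 (limma adjusted p = 0.399 and 0.822). Hepatic stellate cells are among the liver cells known to make Cyp1b1. Of 10 stellate cell and fibroblast markers, 5 fell in the same average (Lrat, Dcn, Reln, Ecm1 and Rgs5) and 0 rose. Their median change was -0.19, where that of all genes was -0.01. In males on day 7 the mean of the 10 markers ran from 8.82 to 9.15 at 150 mg/kg-day and from 9.13 to 9.44 at dose 0. Over all arrays the single markers averaged from 6.09 (Col1a1) to 11.96 (Dcn). Of 10 sinusoidal endothelial markers, 4 fell in the same average (Stab2, Clec4g, Fcgr2b and Tek) and 0 rose, with a median of -0.12. Of 10 Kupffer cell and macrophage markers, 1 rose in that average (Cd5l) and 0 fell, with a median of 0.16. In day 7 males given 150 mg/kg-day the Kupffer cell median was 0.66, with 2 of 10 called higher (Adgre1 and Cd5l) and 9 of 10 at an unadjusted p under 0.05, where 3.04% of all genes were called. The mean of these 10 ran from 9.34 to 9.87 at 150 mg/kg-day and from 8.48 to 9.18 at dose 0. The Kupffer cell median at 150 mg/kg-day was not alike in the other strata. It was -0.36 in day 2 males, -0.01 in day 2 females and 0.31 in day 7 females. In each of these 0 of 10 were called, beside 4.9%, 5.46% and 2.45% of all genes. The part of any of these cell types in the Cyp1b1 result was not tested.

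**Figure D3:**
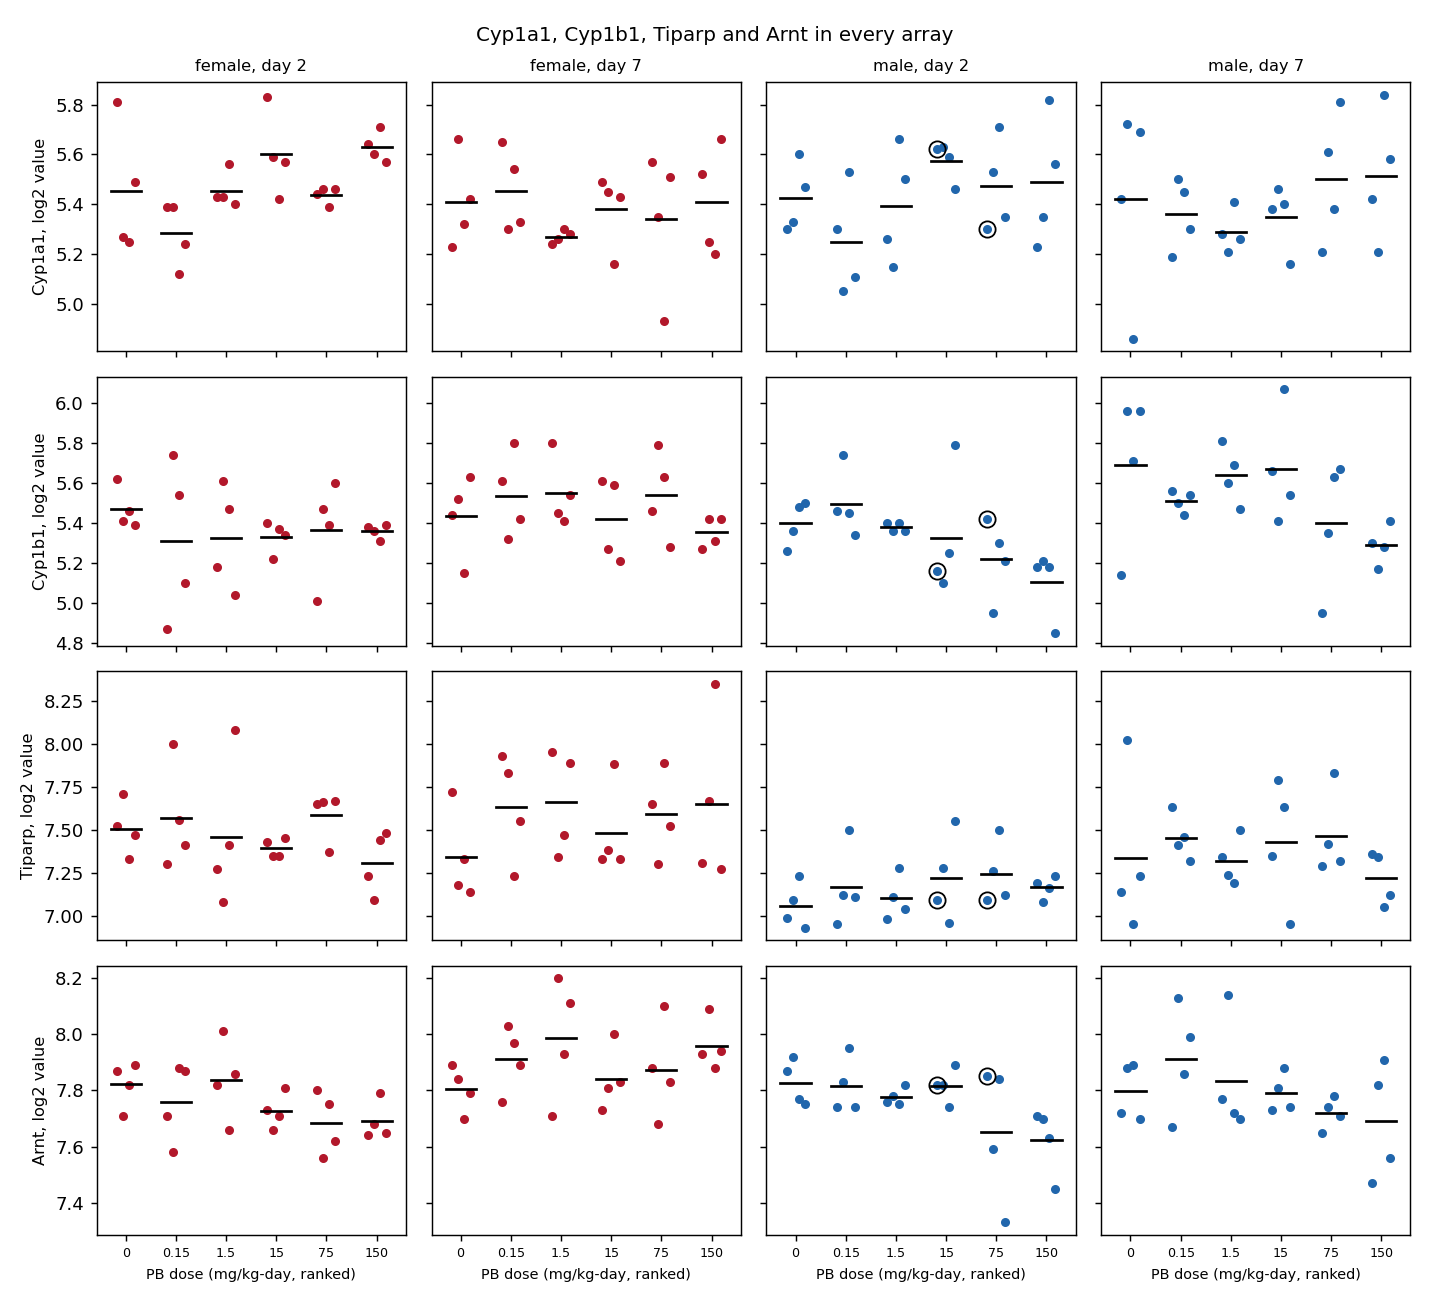
Log2 value of Cyp1a1, Cyp1b1, Tiparp and Arnt in each of the 96 arrays (points; bars are group means of 4) against PB dose in mg/kg-day, with doses evenly spaced by rank and a column for each sex and day. Circles mark the doubted pair, and the dosed and undosed groups overlap for Cyp1a1 and Tiparp in every column.

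**Figure D4:**
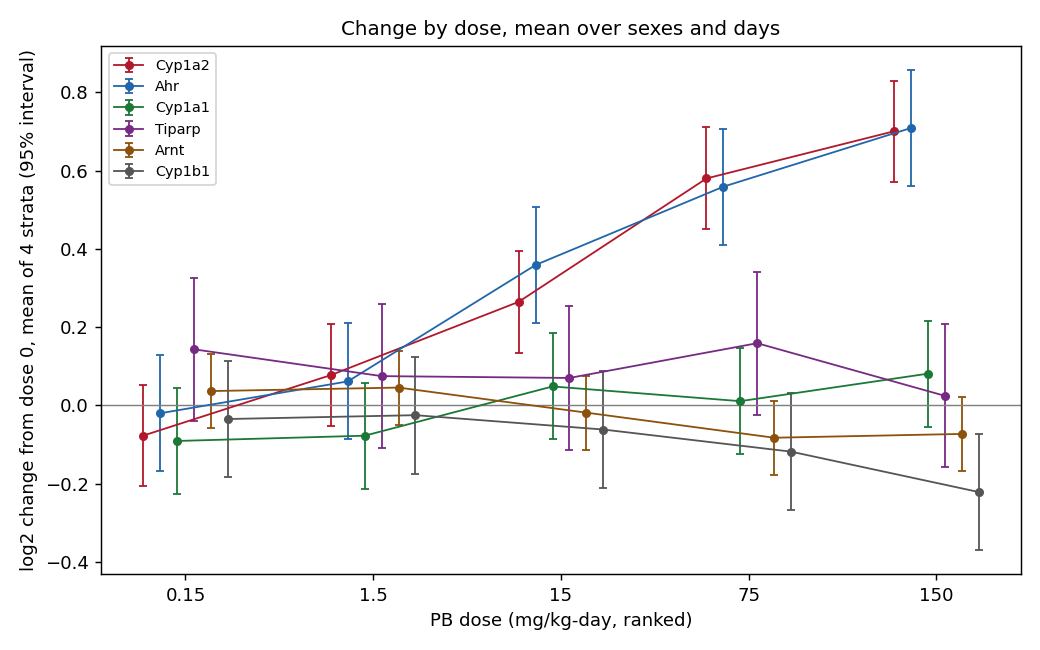
Log2 change from dose 0 of the 6 genes, averaged over both sexes and both days, with limma's 95% interval, against PB dose in mg/kg-day spaced by rank. Cyp1a2 and Ahr reach 0.70 and 0.71 at 150 mg/kg-day, Cyp1b1 reaches -0.22, and the intervals of Cyp1a1, Tiparp and Arnt include 0 at all 5 doses.

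The response was compared between sexes and between days in the same fit. None of the 6 genes was called by limma in any of the 4 comparisons of the sexes at 150 or 75 mg/kg-day, where 0 of 24 tests had an unadjusted p under 0.05, or in any of the 4 comparisons of the days, where 3 of 24 did. Between the sexes, the share of all genes called was at most 0.0879% (on day 7 at 150 mg/kg-day) and 0.0055% elsewhere. Between the days at 150 mg/kg-day it was 0.874% in females and 0.132% in males. The largest of these differences for Cyp1a2 was in males at 150 mg/kg-day, where the rise on day 7 minus that on day 2 was -0.41 on the log2 scale (95% interval from -0.775 to -0.041, limma adjusted p = 0.469). At dose 0 no member was called between the sexes on either day or between the days in either sex, with an unadjusted p under 0.05 in 2 and 1 of 12 tests. The sexes differed at dose 0 in 2.06% of all genes on day 2 and 6.71% on day 7, and the days in 0.0165% of genes in females. For Cyp1a2, females minus males at dose 0 was -0.09 on day 2 and -0.21 on day 7 (limma adjusted p = 0.875 and 0.386).

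Averaged over all doses and both days, a contrast chosen after the data were seen, Tiparp was higher in females than in males by 0.25 on the log2 scale (limma adjusted p = 6.02e-05) and Ahr by 0.13 (limma adjusted p = 0.0121), and Cyp1a2 was lower in females by 0.21 (difference -0.21, limma adjusted p = 2.26e-06). This contrast called 41.4% of all genes. Tiparp ran from 7.08 to 8.35 in the 48 female arrays, with a median of 7.44, and from 6.93 to 8.02 in the 48 male arrays, with a median of 7.23. The sexes overlapped widely.

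Averaged over doses and sexes, also chosen after the data were seen, Cyp1b1 was higher on day 7 than on day 2 by 0.16 (limma adjusted p = 0.00481), Arnt by 0.09 (limma adjusted p = 0.0131) and Tiparp by 0.15 (limma adjusted p = 0.0431), in a contrast that called 15.5% of all genes. Without the doubted pair the Tiparp difference was 0.14 with a limma adjusted p of 0.0685. The other 5 calls of the sex and day contrasts over all doses held without it (limma adjusted p from 1.08e-06 to 0.0095). Neither contrast was run on the other probe sets of these genes.

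Put in order from high to low, the 24 group means of each member formed a near-continuous series, and no 2 neighbours in the order lay further apart than the spread between arrays of a group. Cyp1a2 was highest in day 2 males at 150 mg/kg-day, 13.44 ± 0.15 (SD, n = 4), and lowest in females on day 7 at 0.15 mg/kg-day, with a group mean of 12.24. Ahr was highest in females on day 2 at 150 mg/kg-day, 9.89 ± 0.08 (SD, n = 4), and its lowest group mean was 8.87. The range of group means was 1.20 for Cyp1a2 and 1.02 for Ahr, where it was 0.37 for Arnt, 0.38 for Cyp1a1, 0.59 for Cyp1b1 and 0.60 for Tiparp.

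The genes whose 24 group means ran most like those of Cyp1a2, among 11986 brighter genes, were Gstm3, Gstm4, Cyp2c55, Abcc3 and Gstm1, with Pearson correlations of 0.953, 0.942, 0.934, 0.931 and 0.929. They are glutathione transferases, a P450 and an efflux pump of the drug-metabolising set. Ahr was most like Cyp2b10, Cyp2c50 and Cyp2c54 (0.906, 0.888 and 0.883), and the correlation between Cyp1a2 and Ahr was 0.736. The nearest to Arnt were Baz2b, Mkrn2 and Slc7a2 (0.869 to 0.848), to Tiparp Spata13, Il15ra and Sesn1 (0.858 to 0.852), to Cyp1b1 Washc2, Ppara and Pgm2l1 (0.803 to 0.753) and to Cyp1a1 Scoc, Mrps28 and Kcnc1 (0.75 to 0.688). These are descriptions over group means that share doses, sexes and days and that include the doubted pair. The genes named as most alike are the highest of 11986, and the Cyp1a1 and Cyp1b1 signals were not shown to be above background.

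Around the 6 genes, the rest of the pathway was read in the average over sexes and days at 150 mg/kg-day. Of 8 listed partners of the receptor complex and its dimers, 5 were measured. Hsp90aa1, an Hsp90 chaperone, rose by 0.25 (limma adjusted p = 0.0105) and Hif1a by 0.16 (limma adjusted p = 0.0314), and the clock factor Arntl fell by 0.62 (limma adjusted p = 0.0186). The median change of the 5 measured was 0.01, in a comparison in which 17.7% of all genes were called. In the single strata at 150 mg/kg-day, Hif1a in females on day 7 was the only call among them. Of 10 listed repressors and coregulators 9 were measured, with a median of -0.07, and none was called by limma in this average (3 had an unadjusted p under 0.05). The AhR repressor gene Ahrr, itself a known AhR target, differed by -0.10 at a mean of 3.26 (limma adjusted p = 0.154).

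Of 14 other genes of the AhR battery 10 were measured. In the average, 5 rose, 0 fell and 5 did not pass, in a comparison in which 17.7% of all genes were called. Their median change was 0.18, where that of all genes was -0.01. Gsta2, a glutathione transferase whose probe set may also read its close paralogs, rose by 1.70 (3.24-fold, limma adjusted p = 1.29e-08). Ugdh, which makes UDP-glucuronic acid for glucuronidation, rose by 0.80 (1.74-fold, limma adjusted p = 5.53e-15), Nqo1, a quinone reductase, by 0.75 (1.68-fold, limma adjusted p = 2.72e-06) and Nfe2l2, the Nrf2 regulator of several of these genes, by 0.24 (limma adjusted p = 0.00249). The fifth was Xdh, xanthine dehydrogenase (0.37, limma adjusted p = 0.0252). Gsta2 and Ugdh were called in all 4 strata at 150 mg/kg-day, and Nqo1 on day 2 in both sexes. Aldh3a1, another AhR battery gene, differed by -0.04 at a mean of 3.45 (limma adjusted p = 0.67). Several genes of this list are known to respond to Nrf2 as well as to AhR. Of 10 listed CAR reference genes 8 were measured, and in the same average 6 rose and 1 fell, with a median of 1.09. The part of AhR, Nrf2 or CAR in the rises of the battery genes was not tested.

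Cyp1a2 is made mostly around the central vein, so other pericentral genes were read beside it. Of 12 listed 11 were measured, 8 fell and 1 rose in the average, with a median of -0.41, in a comparison in which 17.7% of all genes were called and 9.42% were called lower. Gulo, of ascorbate synthesis, fell by 0.77, Oat, ornithine aminotransferase, fell by 0.81, and Nkd1, a Wnt target, fell by 0.58 (limma adjusted p = 6.34e-12, 1.05e-06 and 2.03e-06). Lect2 rose by 0.50 (limma adjusted p = 4.25e-09). Of the 9 hepatocyte markers measured, 4 fell (Apoa1, Apoh, Asgr1 and Hnf4a), by 0.07 to 0.13, and 0 rose. The part of liver zonation in the Cyp1a2 result was not tested.

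**Figure D5:**
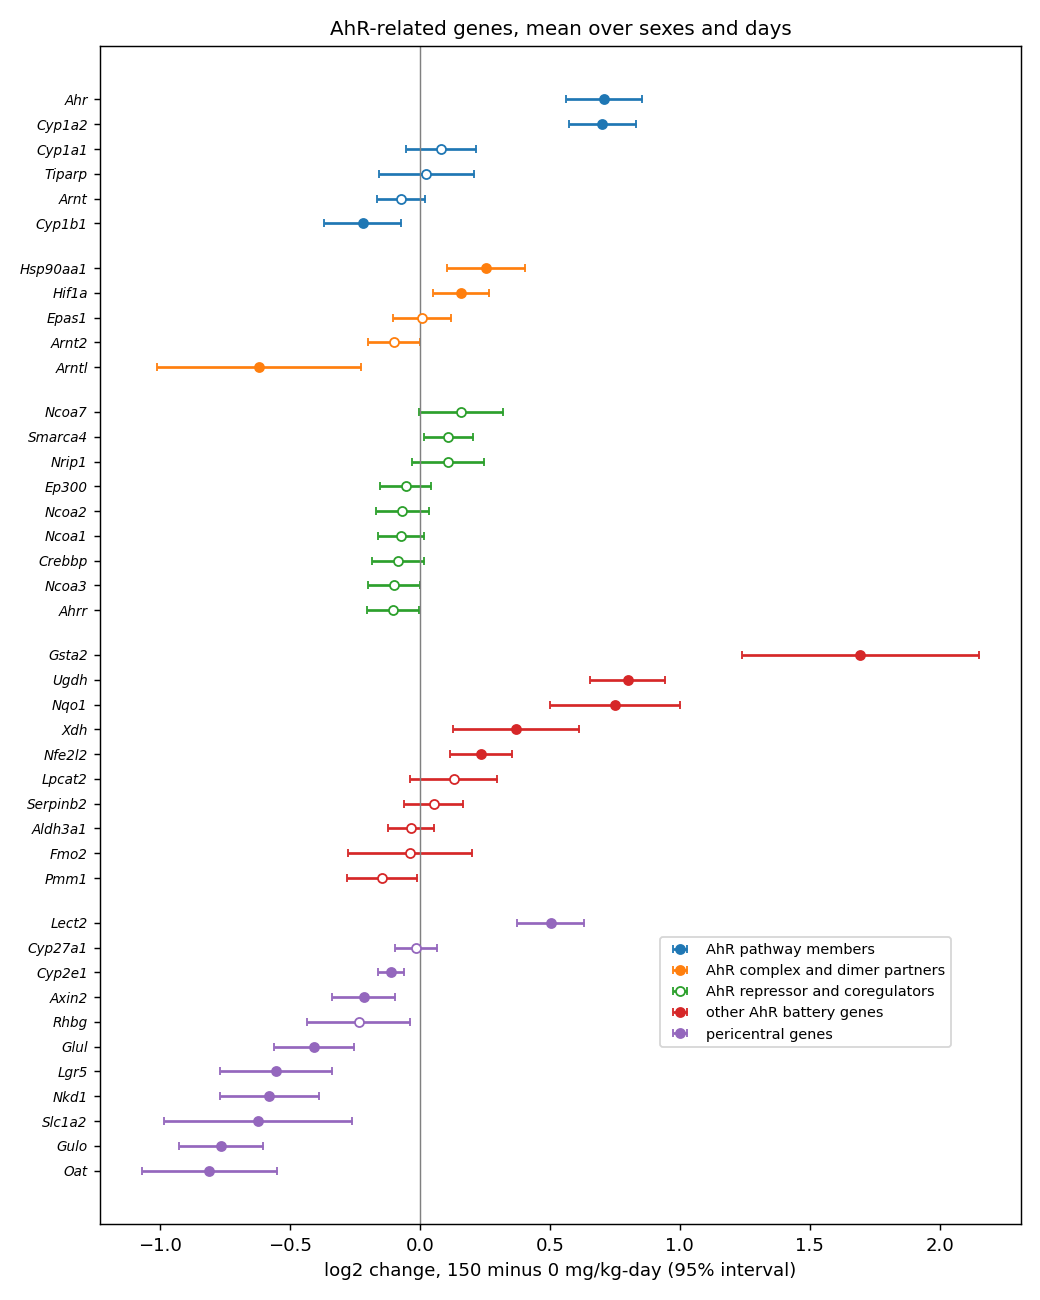
Log2 change at 150 minus 0 mg/kg-day, averaged over both sexes and both days, with 95% intervals, for the 6 genes and 4 lists of related genes. Filled points passed the limma adjusted p threshold of 0.05: 5 of 10 other AhR battery genes lie above 0, and 8 of 11 pericentral genes lie below it, where 17.7% of all genes passed, 9.42% below 0.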

How the data were processed

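RNA from CD-1 mouse liver was hybridised to 96 arrays, 1 for each sample. Per the labels' protocols, RNA was extracted with Trizol, and the Enzo system was used for amplification and biotin labelling. Deposited values are log2; the array medians nearly coincide, so the authors had normalized between arrays, by an unstated method. No detection calls were used here. Of 45101 probe sets, 64 were control sets and left out, 34945 had 1 gene symbol, 932 several and 9160 none. The last 2 kinds were not used, which left 18193 genes, 9010 of them with several probe sets.

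Titles gave each sample's sex, dose and day. limma 3.58.1 (R 4.3.3) fitted the 24 group means jointly, leaving 72 residual degrees of freedom. Tests were two-sided; Benjamini-Hochberg adjusted p-values under 0.05, taken across all genes, count as called. The members and lists were chosen with earlier results of these data known. Named genes outside the members were up to 4 of each pathway list with the smallest adjusted p in the average at 150 mg/kg-day, and those most like a member over 24 group means. Xdh, Aldh3a1 and the marker genes given by name were added after their values were seen. Alternatives were each array left out, other probe sets, quantile normalization, fewer arrays in the fit, no dim genes, another variance model, a replicate block and, added after seeing the data, leaving out the doubted pair. The fit was tested on simulated data. Precision is limited by the 4 arrays per group. Promoter sequences came from RefSeq, build GRCm38.p6, matched by symbol for 5 of the 6 members. Python with pandas and matplotlib drew the figures.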

Additional observations from a re-analysis of the deposited data

Results flagged for a closer look

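In 8 of 144 groups of 4 arrays tested, 1 array lay far from the others by Dixon's test; chance flags about 1 group in 20. For Cyp1a2, replicate 2 of females on day 2 at 75 mg/kg-day read 13.35 where the nearest array read 13.04, and replicate 3 of females on day 7 at 1.5 mg/kg-day read 12.90 where the nearest read 12.51. For Ahr, replicate 2 of males on day 2 at 150 mg/kg-day read 9.41 against 9.81 in the nearest array, and replicate 4 of females on day 7 at 1.5 mg/kg-day read 8.78 against 9.05. Cyp1b1 read 4.85 in replicate 4 of males on day 2 at 150 mg/kg-day, against 5.18 in the nearest array, and this is one of the arrays on which its call in the average rests. Tiparp read 7.37 in replicate 3 of females on day 2 at 75 mg/kg-day, below the nearest value of 7.65, and 7.88 in replicate 3 of females on day 7 at 15 mg/kg-day, above 7.38. Arnt read 8.14 in replicate 2 of males on day 7 at 1.5 mg/kg-day, above 7.77. At 150 and 75 mg/kg-day, no response of a member was called different between sexes or days. The lack of a call does not show that the responses were equal.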

How the results depend on the processing

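No called result changed direction under any alternative run. With the fit restricted to the 8 arrays compared, 3 rises at 150 mg/kg-day lost their call: Ahr in females on day 2 (0.55, limma adjusted p = 0.0547), Ahr in males on day 7 (0.73, limma adjusted p = 0.0605) and Cyp1a2 in females on day 7 (0.57, limma adjusted p = 0.0636). The members called there were 1 in each of these strata, and 0 at 75 mg/kg-day on day 2 in either sex. The share of all genes called in these smaller fits is not given here, so a general loss of calls cannot be told apart. In females on day 7 at 75 mg/kg-day, where 0 members were called, Ahr was called with the 24 arrays of that stratum and without dim genes, and Cyp1a2 without control replicate 3. The second Ahr probe set gave 0.073, 0.27, 0.29 and 0.15 at 150 mg/kg-day in females on days 2 and 7 and males on days 2 and 7.

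With 1 array left out at a time, Ahr in females on day 2 at 150 mg/kg-day ran from 0.46 to 0.68, Cyp1a2 in females on day 7 from 0.44 to 0.65 and Cyp1a2 in males on day 7 from 0.46 to 0.55. The count of members called at 150 mg/kg-day ran from 1 to 2 in females on either day and 1 to 3 in males on day 7, that in females on day 7 at 75 mg/kg-day from 0 to 1, and that in the average at 15 mg/kg-day from 0 to 2. Of 2880 values with 1 array left out, 2866 kept their side of the threshold. Of 1521 values under the other settings, 1504 did. These totals include many comparisons far from the threshold, so they do not measure how firm the calls are. Same-numbered arrays did not deviate together (mean correlation 0.001 over 1104 pairs), and a fit with a replicate block changed no member's call, with Cyp1a2 at 0.82 and 998 genes called in females on day 2 at 150 mg/kg-day. The absence of detection calls here limits what can be said of Cyp1a1 and Cyp1b1.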
